A study of Mus musculus with 9 samples.

Results

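The genes described here encode plasma proteins that the liver secretes in larger amounts during the acute phase response: the fibrinogen chains (Fga, Fgb and Fgg), haptoglobin (Hp), hemopexin (Hpx), the orosomucoids (Orm1 and Orm2), lipocalin 2 (Lcn2), the serine protease inhibitor gene Serpina3n and the leucine-rich α-2 glycoprotein gene Lrg1. Every probe annotated to 1 of these 10 gene symbols was taken, which gave 14 of the 45281 probes on the arrays. All 14 passed the filter on dim probes, and with 1 probe per gene the 10 genes stood among 11559 tested features. Whole livers of 9 C57BL/6 mice were read on Illumina bead arrays 12 h after partial hepatectomy, surgery in which a portion of the liver is cut away and the remnant regrows. The 5 livers called etanercept 1 to 5 came from LTRβ-/- mice, which lack the lymphotoxin β receptor, and these mice had received etanercept, a soluble TNF receptor fusion protein, 24 h before surgery. The 4 livers called control 1 to 4 came from WT mice labelled Control. The drug was given only to the mutant genotype, the labels do not give a treatment for the WT mice beyond that word, and unoperated livers were not analysed here, so each difference belongs to the combination.

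In the acute phase response, IL-6 made largely by macrophages activates STAT3 in hepatocytes, while IL-1 and TNF act through NF-κB and C/EBP factors, and transcripts of many secreted proteins increase within hours. Partial hepatectomy sets off this response, and TNF receptor signalling lies upstream of IL-6 in the regenerating liver. Fibrinogen chains assemble into the clotting protein, haptoglobin and hemopexin bind free haemoglobin and haem, orosomucoids carry lipophilic molecules, and lipocalin 2 binds bacterial siderophores.

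The stretch of 250 bases before the annotated start was available from RefSeq (GRCm38.p6) for 8 of the 10 genes, and 5 are shown because they belong to the fibrinogen genes, which share a locus, and to Hpx and Orm2, whose levels varied most between livers among the genes with such a sequence and a bright probe. They lie at chr3:83025903-83026152 (plus strand, Fga), chr3:83049864-83050113 (minus strand, Fgb), chr3:83007474-83007723 (plus strand, Fgg), chr7:105600117-105600366 (minus strand, Hpx) and chr4:63362199-63362448 (plus strand, Orm2). Capitals mark matches, on either strand, to CTGGGA (the core of IL-6 response elements), TTCNNNGAA (a STAT site) or TTGCNNAA (a C/EBP site), and no matches overlapped in these genes.
Fga: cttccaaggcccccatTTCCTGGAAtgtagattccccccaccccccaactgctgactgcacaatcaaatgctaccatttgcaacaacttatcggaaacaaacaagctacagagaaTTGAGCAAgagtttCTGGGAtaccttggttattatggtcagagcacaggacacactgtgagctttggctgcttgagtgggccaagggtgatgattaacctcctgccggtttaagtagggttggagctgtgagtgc
Fgb: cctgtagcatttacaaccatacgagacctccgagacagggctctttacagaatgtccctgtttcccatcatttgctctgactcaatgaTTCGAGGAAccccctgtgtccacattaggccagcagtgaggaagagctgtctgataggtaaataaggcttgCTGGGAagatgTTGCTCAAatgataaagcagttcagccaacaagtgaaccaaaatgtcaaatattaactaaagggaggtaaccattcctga
Fgg: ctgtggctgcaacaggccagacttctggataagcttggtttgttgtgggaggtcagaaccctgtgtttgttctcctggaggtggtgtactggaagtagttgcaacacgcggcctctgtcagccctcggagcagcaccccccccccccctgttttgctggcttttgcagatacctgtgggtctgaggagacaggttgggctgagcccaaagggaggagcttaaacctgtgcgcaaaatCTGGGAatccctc
Hpx: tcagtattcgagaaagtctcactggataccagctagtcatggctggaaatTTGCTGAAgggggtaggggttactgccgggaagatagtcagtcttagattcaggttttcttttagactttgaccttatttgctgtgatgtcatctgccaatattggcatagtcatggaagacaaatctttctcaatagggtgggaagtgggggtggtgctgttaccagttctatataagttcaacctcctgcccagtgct
Orm2: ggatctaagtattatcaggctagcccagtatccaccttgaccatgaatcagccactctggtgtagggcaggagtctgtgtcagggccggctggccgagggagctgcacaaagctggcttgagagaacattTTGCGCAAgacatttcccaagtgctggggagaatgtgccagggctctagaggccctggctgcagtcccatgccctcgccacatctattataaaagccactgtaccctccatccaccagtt
CTGGGA was found before all 3 fibrinogen genes and before Lrg1, which is 4 of the 8 genes with a sequence, against 27% of the 32851 RefSeq promoter stretches of the same length. Its position was 121 bases before the start of Fga, 91 before Fgb and 13 before Fgg. TTCNNNGAA was found before Fga and Fgb, against 7.02% of all stretches, and TTGCNNAA before Fga, Fgb, Hpx, Orm2 and Lcn2, against 9.56%. The Serpina3n stretch held none of these letters, and it starts at a position other than the gene's outermost annotated start. A match is a description of letters and not of binding.

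The arrays were alike in brightness with 1 exception. Mean bead signal over all probes was 336 to 438 intensity units on 8 arrays and 143 on etanercept 4, where 9493 probes had a detection p under 0.05, against 13926 to 16186 on the others. Etanercept 4 is the dim array referred to below. Hepatocyte transcripts were present in every liver: the summed level of 10 hepatocyte markers was 16.57 to 16.68 in the etanercept livers and 16.56 to 16.85 in the controls on the log2 scale. Ltbr, the deleted gene, read 5.69, 6.77, 6.07, 4.87 and 6.24 in etanercept 1 to 5, against 6.97, 6.94, 6.48 and 6.41 in control 1 to 4. The probe was detected in 4 of 5 etanercept and 4 of 4 control livers. The groups overlapped, with a difference of -0.78 ± 0.35 (SE) that missed the threshold (limma adjusted p = 0.931). Where the probe lies relative to the deleted part is not known, so it checks no label.

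The comparison asks whether the acute phase genes differed between LTRβ-/- mice given etanercept and WT controls at 12 h. None of the 10 genes passed an adjusted p under 0.05 in limma, where 0.00865% of all tested features passed, and 0 of 10 had an unadjusted p under 0.05, against 4.09% of all features. The values of the etanercept and control livers overlapped for all 10 genes, while 0.796% of all features did not overlap between the groups. The difference, etanercept minus control on the normalized log2 scale, was negative for 8 of the 10 genes, against 52.4% of all features. The median difference was -0.26 for the 10 genes and -0.02 for all features. Differences lay between -0.92 for Orm2 and 0.10 for Fgg. Without the dim array the difference was negative for 9 of 10 genes, against 51.0% of all features, and the median was -0.16, against -0.006 for all features.

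**Figure D1:**
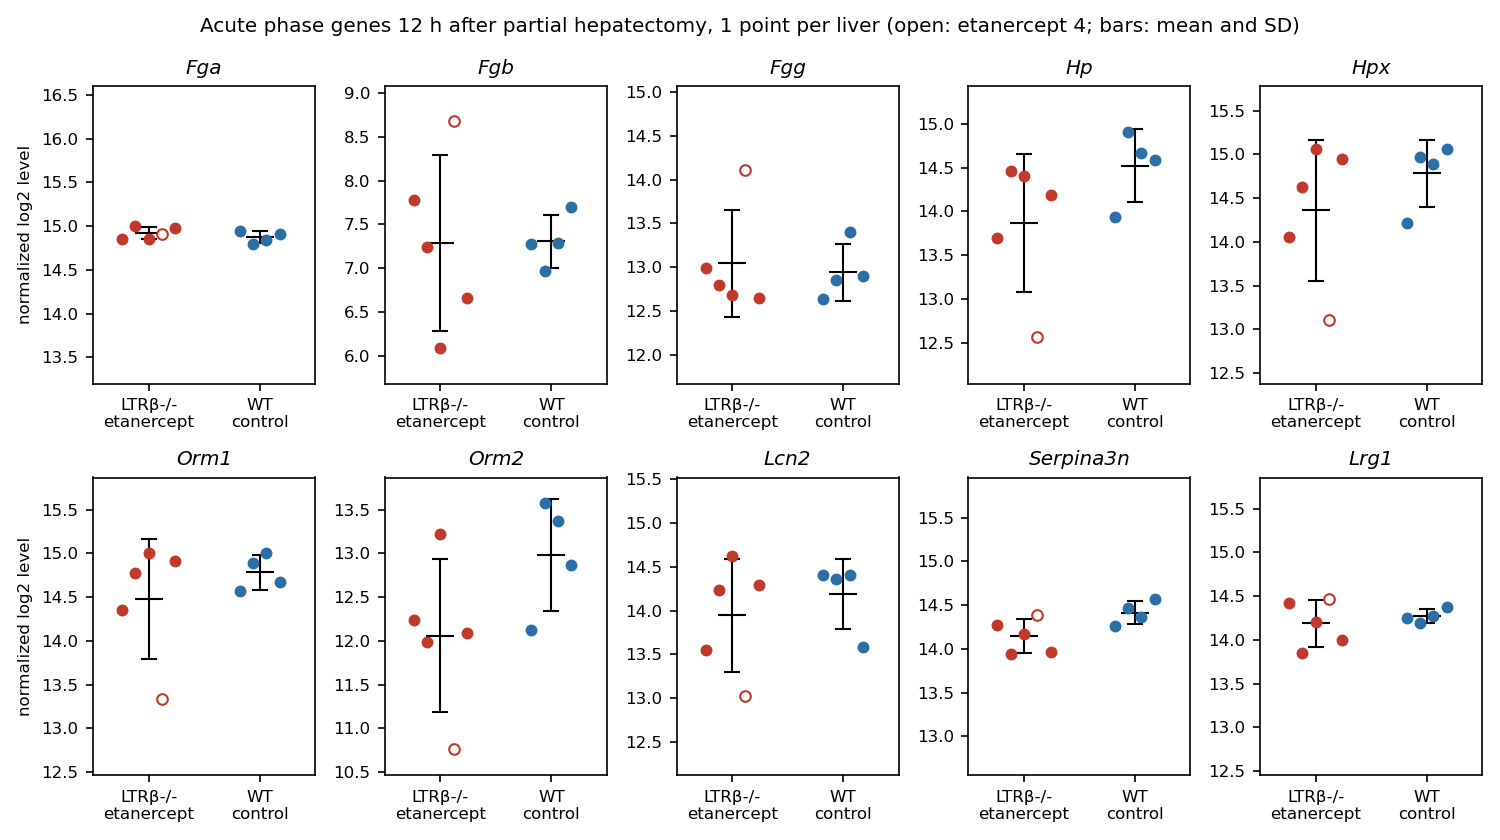
Normalized log2 level of each acute phase gene (y axis, each panel spanning the same number of log2 units) in LTRβ-/- etanercept livers (left, n = 5) and WT control livers (right, n = 4), 1 point per liver, with mean and SD as bars. The groups overlap in all 10 panels, and the open point, etanercept 4, is the lowest for Hp, Hpx, Orm1, Orm2 and Lcn2.

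**Figure D2:**
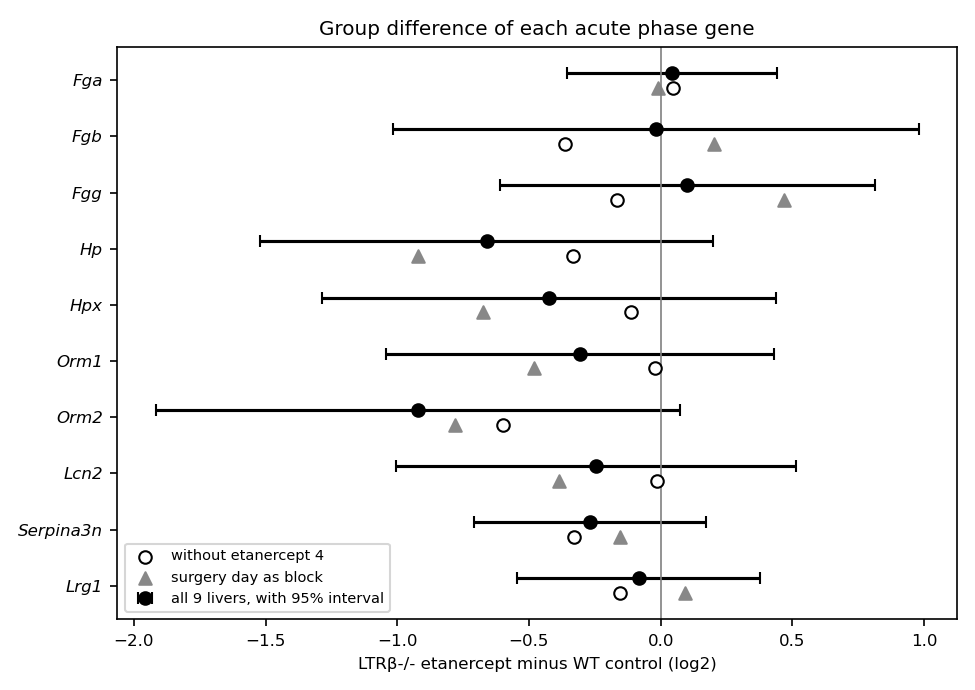
Difference between LTRβ-/- etanercept and WT control livers in log2 units (x axis) for each gene (y axis). Filled circles with lines are the values over 9 livers with 95% limma intervals, open circles leave out etanercept 4, and triangles take surgery day as a block; every interval includes 0.

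The fibrinogen chain genes showed small group differences, and the readings of their probes did not vary alike between livers. The part of probe brightness and of the dim array in this was not tested. Fga, which encodes the α chain, had log2 levels of 14.85, 15.00, 14.85, 14.91 and 14.97 in etanercept 1 to 5, against 14.94, 14.80, 14.84 and 14.91 in control 1 to 4. These values span 0.20 over the 9 livers, and the residual SD of 0.07 lay at percentile 0.0346 of all tested features. The difference was 0.04 with a 95% interval of -0.35 to 0.44 (limma adjusted p = 0.969). This probe was close to the top of the scale: its signal was 66.5% to 94.1% of the highest signal on the same array, where little room is left for a higher reading. Under cyclic loess scaling the Fga difference was 0.56, outside that interval. The other Fga probe gave a difference of -0.07, with a range of 0.44 over the livers.

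Fgg, the γ chain gene, read 12.99, 12.80, 12.68, 14.11 and 12.65 in etanercept 1 to 5, against 12.63, 12.85, 13.40 and 12.89 in control 1 to 4. The highest value was that of the dim array, and the other livers of both groups lay within 0.77 of each other. The difference of 0.10 ± 0.32 (SE; limma adjusted p = 0.965) became -0.17 without the dim array. Before normalization that array had the lowest Fgg signal, 4855 units, against 7517 to 11693 on the others. Within its own array, however, the probe ranked 70 in brightness on etanercept 4 and 171 to 379 on the other arrays. In the authors' values Fgg was also highest in etanercept 4, at 13.37. The reason for this high reading was not tested.

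Fgb, the β chain gene, was read by a dim probe with 134 to 273 signal units, at most 0.740% of the highest signal on its array. Its log2 levels were 7.78, 7.24, 6.08, 8.68 and 6.66 in etanercept 1 to 5, against 7.27, 6.96, 7.29 and 7.69 in control 1 to 4. The etanercept livers held both the highest and the lowest value, with an SD of 1.00, against 0.30 in the controls. The difference was -0.02 with an interval of -1.01 to 0.98 (limma adjusted p = 0.996), and its sign is not settled: it was -0.36 without etanercept 4 and 0.28 without etanercept 3.

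The scavengers of haemoglobin and haem had lower means in the etanercept livers, by less than the test could call. Hp read 13.70, 14.47, 14.41, 12.56 and 14.19 in etanercept 1 to 5, against 13.93, 14.90, 14.67 and 14.59 in control 1 to 4. Of the controls, 3 lay above every etanercept liver, and control 1 lay below 3 of the etanercept livers. The difference was -0.66 ± 0.39 (SE), a ratio of 0.633, with an interval of -1.52 to 0.20 (limma adjusted p = 0.931). Without the dim array it was -0.33.

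Hp had 3 probes, and they differed in how far the livers spread. The probe used above spanned 5.06-fold over the 9 livers, while ILMN_2668509 spanned 55.4-fold and ILMN_2668510 40.8-fold. ILMN_2668509 read 9.05, 12.65, 12.97, 7.70 and 10.79 in etanercept 1 to 5, against 8.61, 13.49, 12.93 and 11.96 in control 1 to 4. Low readings thus occurred in both groups, in control 1, etanercept 1 and the dim array, and the bead signals show the same without normalization: 540 units in etanercept 1 and 577 in control 1, against 12833 in control 2. ILMN_2668510 gave the same order of livers at the low end, with 9.70 in etanercept 1, 8.83 in etanercept 4 and 9.41 in control 1. Their group differences, -1.12 ± 1.20 (SE) and -0.96 ± 1.15 (SE), were smaller than the spread within either group, which had SDs of 2.27 and 2.16 in the etanercept livers and 2.18 and 2.09 in the controls (limma adjusted p = 0.959 each, over all probes). All 3 probes are annotated to the same transcript, NM_017370, and the reason for the unequal spread was not tested.

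**Figure D3:**
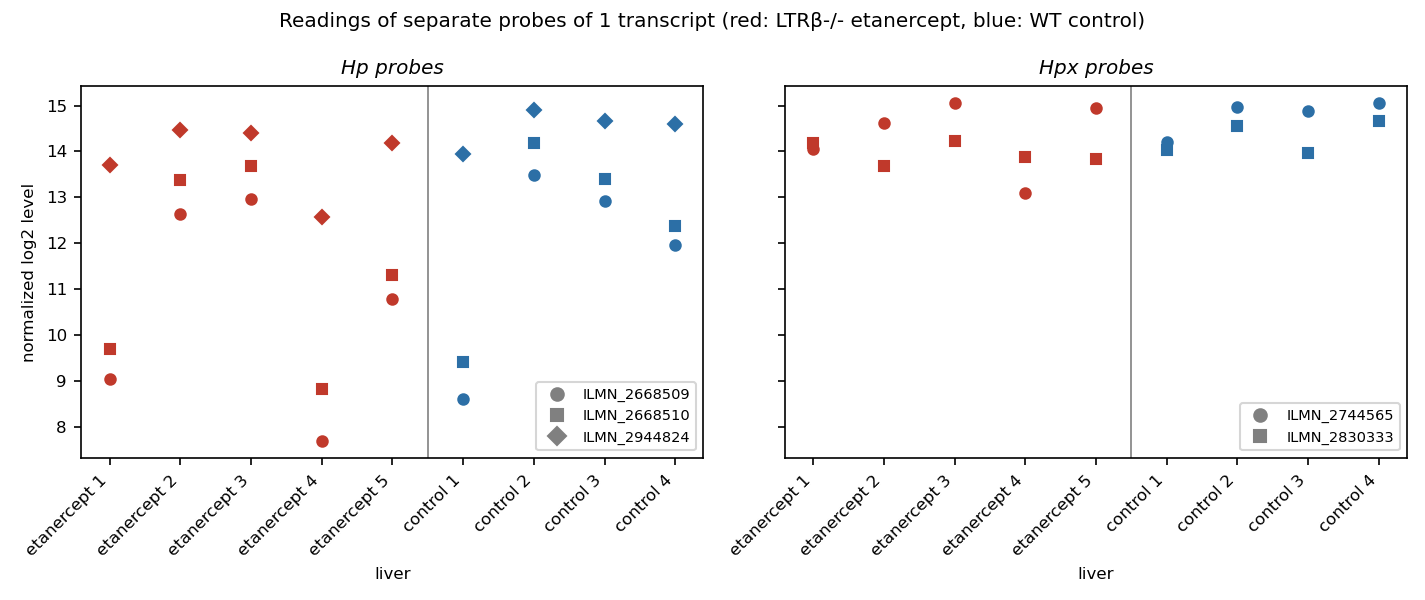
Normalized log2 level (y axis) of the 3 Hp probes (left panel) and the 2 Hpx probes (right panel) in each liver (x axis; LTRβ-/- etanercept livers in red, WT controls in blue). ILMN_2668509 and ILMN_2668510 fall to between 7.70 and 9.70 in etanercept 1, etanercept 4 and control 1, while ILMN_2944824 stays between 12.56 and 14.90.

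Hpx read 14.06, 14.62, 15.06, 13.10 and 14.95 in etanercept 1 to 5, against 14.22, 14.97, 14.89 and 15.06 in control 1 to 4. The lowest control was control 1, as for Hp, and the highest livers of both groups reached the same level. The difference was -0.42 ± 0.39 (SE; limma adjusted p = 0.931), or -0.11 without the dim array. The other Hpx probe differed by -0.34 ± 0.24 (SE), or -0.32 without the dim array. The signal of the Hpx probe used was 85.4% of the highest on its array or more in control 2, control 3, control 4, etanercept 3 and etanercept 5.

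Orm2 had the largest difference of the 10 genes with 1 probe per gene, while Hp was further from 0 than Orm2 with surgery day as a block (-0.92 against -0.78) and in the authors' values (-0.91 against -0.82). Orm2 read 12.24, 11.99, 13.22, 10.76 and 12.09 in etanercept 1 to 5, against 12.13, 13.57, 13.36 and 12.86 in control 1 to 4. Etanercept 3 and control 1 were the livers that crossed: the other etanercept livers lay below the other controls. Orm2 averaged 12.06 ± 0.88 in the etanercept livers and 12.98 ± 0.64 in the controls (SD, n = 5 and 4), a ratio of 0.528. The difference of -0.92 ± 0.45 (SE) had an interval of -1.92 to 0.08 and missed the threshold (limma adjusted p = 0.931). Of the 10 genes it had the smallest unadjusted limma p, at rank 682 of 11559 features. Without the dim array the difference was -0.60. The Orm2 probe had room above it, with 1.06% to 34.5% of the highest signal on its array.

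Orm1 read 14.36, 14.78, 15.00, 13.34 and 14.91 in etanercept 1 to 5, against 14.57, 14.89, 15.00 and 14.67 in control 1 to 4. The dim array lay below every other liver, and the other 8 livers lay within 0.64. The difference was -0.31 ± 0.33 (SE; limma adjusted p = 0.931), and -0.02 without the dim array. Its signal reached 91.5% of the highest on the array in etanercept 3 and 93.5% in control 3. Orm1 and Orm2 are close copies, and whether their probes also bind the partner transcript was not tested.

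Lcn2, the siderophore binding protein, is made by hepatocytes in the acute phase and is also stored in neutrophil granules. It read 13.55, 14.24, 14.62, 13.02 and 14.29 in etanercept 1 to 5, against 14.41, 14.36, 14.40 and 13.59 in control 1 to 4. Control 1, control 2 and control 3 lay close together, and control 4 stood below them at the level of etanercept 1. The difference was -0.24 ± 0.35 (SE; limma adjusted p = 0.939). It was -0.01 without the dim array, -0.15 without etanercept 1, -0.41 without etanercept 3 and -0.45 without control 4. Of 12 listed neutrophil markers, 6 could be tested and 3 were detected on no array. None of the 6 passed, and their median difference was 0.34, or 0.023 with surgery day as a block. Their summed level was 9.44 to 10.96 in the etanercept livers and 9.37 to 10.47 in the controls, and the markers' part in the Lcn2 levels was not tested. In whole liver, fewer cells of a type and less RNA per cell cannot be told apart.

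Serpina3n, related to human α-1 antichymotrypsin, read 14.27, 13.95, 14.17, 14.39 and 13.96 in etanercept 1 to 5, against 14.26, 14.47, 14.37 and 14.57 in control 1 to 4. Etanercept 1 and the dim array reached above control 1, the lowest control, and the dim array also lay above control 3. The difference was -0.27 ± 0.20 (SE), with an interval of -0.71 to 0.17 (limma adjusted p = 0.931), and -0.33 without the dim array. In the values normalized by the authors, the Serpina3n groups did not overlap, at 14.16 to 14.22 in the etanercept livers and 14.34 to 14.41 in the controls. The share of all features without overlap was not counted in those values, so how unusual this is there is not known. There the difference of -0.18 ± 0.04 (SE) passed (limma adjusted p = 0.0287), as did 9.27% of all features. The coefficients of surgery days 2, 4 and 5 against day 1 were at most 1e-04 in those values. Day 3, which has only control 3, had a mean absolute coefficient of 0.0512. The Serpina3n SDs there were 0.028 in the etanercept livers and 0.032 in the controls, against 0.19 and 0.13 in the values used above. A fit without day has 7 residual degrees of freedom, against 3 with the block. So little of day is left in those values that the call without day, and the lack of overlap, can be overstated. With day as a block in the same values the difference was -0.19 and did not pass (limma adjusted p = 0.780). Serpina3n was the 1 member called in the authors' values without the block.

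Lrg1, a secreted glycoprotein induced with the acute phase, read 14.42, 13.85, 14.21, 14.47 and 14.00 in etanercept 1 to 5, against 14.25, 14.19, 14.27 and 14.37 in control 1 to 4. The controls lay between the extremes of the etanercept livers, with an SD of 0.07, against 0.27 in the etanercept livers. The difference was -0.08 ± 0.21 (SE; limma adjusted p = 0.955).

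After normalization the 10 genes did not move as a unit across the 9 livers, and the split described here is that of the dim array. How alike the genes were over the other livers was not computed. Hp, Hpx, Orm1, Orm2 and Lcn2 were each lowest in the dim array, with deviations from the gene's own mean between -1.03 for Lcn2 and -1.71 for Orm2, whereas Fgb, Fgg and Lrg1 were each highest there after normalization. Before normalization the dim array had the lowest bead signal of the 9 for these 3 genes too, with 134 units for Fgb and 7897 for Lrg1. Control 3 had a mean deviation over the 10 genes of 0.30 and control 2 of 0.24, the highest values. Control 1 stood at -0.09, within the etanercept range of -0.42 to 0.08. The residual SD was below percentile 6 of all features for Fga, Serpina3n and Lrg1 (0.0346, 2.76 and 5.50) and was at percentile 86.2 for Orm2 and 86.3 for Fgb. Probes near the top of the scale have little room to vary, and the part of this limit in the small spreads was not tested.

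**Figure D4:**
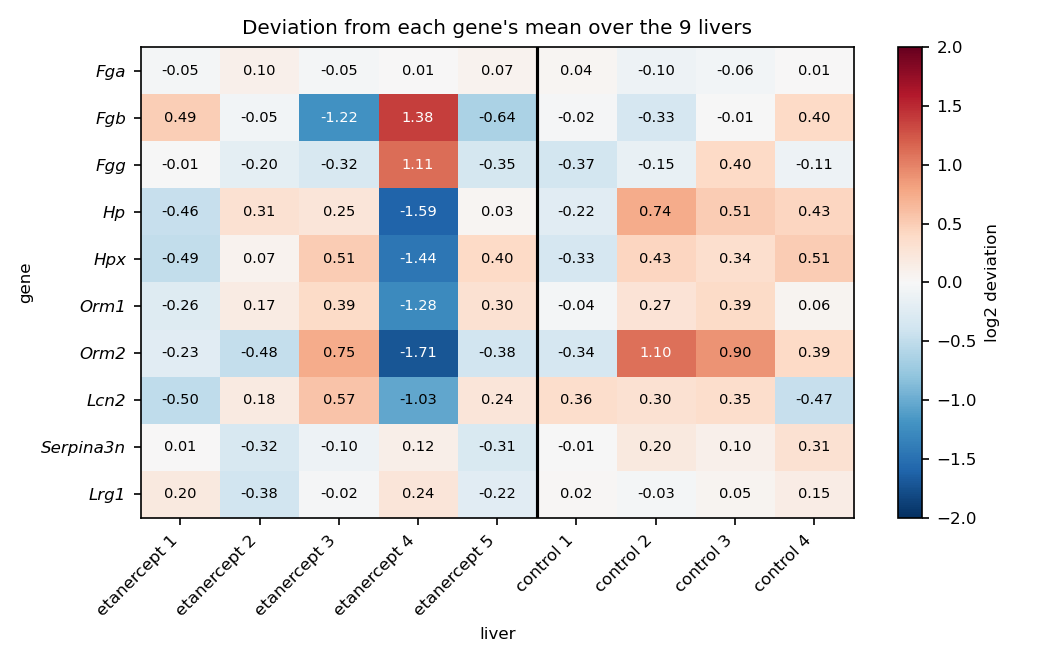
Deviation of each gene (rows) in each liver (columns; LTRβ-/- etanercept left of the line, WT control right of it) from the gene's mean over 9 livers, in log2 units. Etanercept 4 is low for Hp (-1.59), Hpx (-1.44), Orm1 (-1.28), Orm2 (-1.71) and Lcn2 (-1.03) and high for Fgb (1.38) and Fgg (1.11), and control 1 lies below the other controls for Hp, Hpx, Orm1 and Orm2.

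Surgery day numbers in the labels tie livers of both groups on 3 days, and the sign of the difference was not the same on each. On day 1, etanercept 1 minus control 4, 7 of 10 genes were negative with a median of -0.18. On day 2, the dim etanercept 4 minus control 2, 6 of 10 were negative with a median of -0.71. On day 5, etanercept 3 minus control 1, 4 of 10 were negative with a median of 0.13. Orm2 was -0.63, -2.81 and 1.09 on these days, Hp -0.89, -2.34 and 0.47, and Hpx -0.998, -1.87 and 0.84. Serpina3n kept its sign, with -0.30, -0.08 and -0.09. Each of these is 1 liver against 1, with no replicate. With day as a block, the difference rests on these 3 pairs alone, since the other days held livers of 1 group only. For each gene it is the mean of the 3 pairs, and so no separate check. In that fit 7 of 10 genes were negative with a median of -0.27, and 0 passed in limma. With the block and without the dim array, only the pairs of days 1 and 5 bear on the difference. There 5 of 10 were negative with a median of -0.03.

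Other genes of the response were described by lists chosen by function, with earlier results of these data known. Of 30 genes listed as other positive acute phase genes, 25 were tested and 0 passed in either direction. Of the differences, 17 were negative and 8 positive, with a median of -0.18. Saa4 differed by -2.51 ± 0.83 (SE), Saa2 by -0.77 ± 0.38 (SE) and Cd14, the lipopolysaccharide co-receptor, by 1.93 ± 0.73 (SE), each with a limma adjusted p of 0.931. Saa2 differed by -0.11 once surgery day was a block. Saa4 and Saa2 encode serum amyloid A proteins, which are carried on high-density lipoprotein. Whether each listed gene, Saa4 among them, is induced after hepatectomy was not tested, so a lower level is not a lowered induction. Negative acute phase genes, whose transcripts decrease in the response, gave 0 called of 10 tested, with 7 negative and a median of -0.17 that was -0.002 without the dim array and -0.39 with the block. Igfals, a carrier of insulin-like growth factors, differed by -1.23 ± 0.67 (SE), Apoa1, an apolipoprotein gene, by -0.31 ± 0.20 (SE) and Trf, transferrin, by -0.51 ± 0.57 (SE), or 0.0017 without the dim array.

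Inducers and transcription factors of the response gave 0 called of 22 tested, with 16 negative and a median of -0.19, or -0.084 without the dim array and -0.37 with surgery day as a block. Socs3, the feedback inhibitor induced by STAT3, averaged 9.25 ± 0.54 in the etanercept livers and 10.30 ± 0.40 in the controls (SD, n = 5 and 4). Its groups did not overlap, which held for 0.796% of all features. The Socs3 difference, -1.05 ± 0.31 (SE), missed the threshold (limma adjusted p = 0.931). Il1b, which encodes IL-1β, differed by -0.72 ± 0.42 (SE), or -0.41 without the dim array, and Nfkbiz, an NF-κB cofactor, by -0.51 ± 0.33 (SE). Among receptors, partners and processing factors of the plasma proteins, 0 of 9 tested passed and 7 were negative, with a median of -0.29, or -0.11 with the block. Mcfd2, a cargo receptor subunit for secreted proteins, differed by -0.68 ± 0.29 (SE), C1rl, a complement-like protease that cleaves prohaptoglobin in humans, by -1.30 ± 0.63 (SE) and Cd163, the macrophage receptor for haptoglobin and haemoglobin complexes, by 0.64 ± 0.34 (SE), or 0.42 without the dim array. Of the Serpina3 relatives, only Serpina3f was tested, with 0.43 ± 0.30 (SE), or 0.094 with the block. All these had a limma adjusted p of 0.931.

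Markers of other cell types were compared beside these genes. Of the 9 tested Kupffer cell markers all 9 differences were positive, with a median of 0.48 and 0 called, and their summed level was 12.49 to 12.82 in the etanercept livers and 11.65 to 12.53 in the controls. Hepatocyte markers had 6 of 10 negative, 0 called and a median of -0.12, or 0.065 with the block. Alb, Apoa1 and Ttr of this list are also in the negative acute phase list. Serpina1a is also in the positive list and Hnf4a among the transcription factors, so the lists are not separate. Red cell markers had 3 of 3 negative with a median of -0.09 that was 0.15 without the dim array, endothelial markers 3 of 9 negative with a median of 0.15, or -0.018 with the block, and stellate cell markers 3 of 5 negative with a median of -0.28, or -0.14 without the dim array, none called. Cholangiocyte markers (2 tested, median 0.48, or 0.30 without the dim array) and T and B cell markers (1 tested, 0.17) were scarce. Their part in the acute phase levels was not tested.

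The genes outside the list whose profile over the 9 livers was most like the mean deviation of the 10 genes, by Pearson's r as a measure of likeness with no test, were Rnf5 (0.982), Rogdi (0.969), Slc25a25 (0.963), Pxmp2 (0.955) and Pex11g (0.954). That mean follows Orm2, Hp, Hpx, Orm1 and Lcn2, whose own r to it was 0.958, 0.922, 0.853, 0.815 and 0.608. For Serpina3n r was 0.306, and it was negative for Lrg1, Fgg, Fga and Fgb (-0.159 to -0.532). Each member is part of that mean, so genes with a wide range over the livers weigh most in it. These member values include the dim array, where Fgb, Fgg and Lrg1 read highest, and were not computed without it. The dim array is also an extreme point for the 5 nearest genes, which had their lowest reading there as well. Without that array their values were 0.967, 0.940, 0.927, 0.909 and 0.921. Each of the 5 had a negative group difference, from -0.58 for Rnf5 to -1.56 for Pex11g, and none passed (limma adjusted p = 0.931). That sign goes with how they were picked, since the mean profile was itself lower in the etanercept livers, and it is no separate result.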

How the data were processed

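Bead intensity values and detection p-values per probe were used as deposited by the authors, the intensities being average bead signals per the file headers, on scales that differ between arrays. The authors also deposited normalized log2 values, for which the submitters' processing notes name Partek and no method, in which surgery days 2, 4 and 5 have coefficients of at most 1e-04 against day 1, and day 3 a mean absolute coefficient of 0.0512. Array, build and scanner settings beyond this are not given in the sources used here. Intensities were background corrected with the normexp model from detection p-values, offset by 16, then quantile normalized between arrays and log2 transformed (limma 3.58.1, R 4.3.3). A probe was kept if 4 or more arrays had its detection p below 0.05 (15687 probes), and the brightest probe stood for each gene (11559 features, 9319 with a gene symbol). Symbols came from the platform annotation: 34885 probes had 1 symbol, 18 several and 10378 none.

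Groups were taken from the labels and compared with lmFit and eBayes, without covariates, with Benjamini-Hochberg adjustment over all features. Labelled surgery days pair livers on 3 days. Correlations of the paired deviations were 0.168, -0.408 and -0.565. The labels do not say that livers were processed separately, so p-values measure the spread between these samples. Named genes are the 10 members, the 3 genes of each list with the smallest p and the 5 nearest profiles. The members and lists were chosen with earlier results of these data known. The fit was tested on simulated data. Background, scaling, filter, probe, day, slide, array weight and left-out liver alternatives were run.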

Additional observations from a re-analysis of the deposited data

Results flagged for a closer look

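The Fgg reading of etanercept 4 stood apart from the other etanercept livers, at 14.11, with the next at 12.99, so that this gap was 0.768 of the group's whole range, past Dixon's 95% critical value. It comes from the dim array. The Lcn2 reading of control 4 stood apart from the other controls, at 13.59, with the next at 14.36, a gap of 0.939 of the range, also past it. In 20 pairs of a gene and a group, chance alone puts about 1 in 20 past these values. A further 8 pairs, each of a group and a probe not used for its gene, were examined by the same rule, and none was past it.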

How the results depend on the processing

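Differences are etanercept minus control in log2 units, and counts are of limma adjusted p-values under 0.05. None of the 10 genes was called under the 27 alternatives with a test, except Serpina3n in the authors' values, where 1 member and 1072 features were called. Little of surgery day is left in the authors' values, so a fit to them without day can call too many. The features called numbered 0 with median scaling, 0 with every probe fitted, 0 with the mean of the probes, 10 with array weights, 0 with surgery day as a replicate block, 0 with slide as a term, 0 and 0 on either slide alone, 4 with etanercept 4 left out before background correction, 0 with the block and without etanercept 4, and 0 for the authors' values with the block, an alternative chosen after seeing the data. Leaving out 1 liver at a time gave 0 to 4 features. Members with an unadjusted limma p under 0.05 numbered 0 in the main fit, 2 with array weights and 4 in the authors' values. In the other alternatives with a test they numbered 0 or 1. The share of all features was not counted for these alternatives. The median of the 10 genes was -0.68 with median scaling, which moved the median of all features to -0.26 and made 10 of 10 genes negative, -0.12 with cyclic loess, which made 6 negative, -0.71 on day 2, 0.13 on day 5 and -0.035 with the block and without etanercept 4. The negative differences numbered 4 on day 5 and 5 with that block. The block differences are means of the within-day pairs, those of days 1 and 5 once etanercept 4 is left out.

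The sign turned in the following cases. Median scaling gave -0.12 for Fga and -0.26 for Fgg, and cyclic loess 0.018 for Serpina3n and 0.24 for Lrg1, while Fga moved to 0.56 under cyclic loess. The mean of the probes gave -0.012 for Fga, no background correction 0.049 for Fgb, and array weights -0.27 for Fgg and 0.0046 for Orm1. The authors' values gave 0.21 for Fgb and 0.10 for Lrg1, and with the block 0.21 for Fgb and 0.083 for Lrg1. Surgery day as a block gave -0.012 for Fga, 0.20 for Fgb and 0.094 for Lrg1, and without etanercept 4 -0.074 for Fga, 0.057 for Orm1, 0.23 for Orm2, 0.090 for Lcn2 and 0.0048 for Lrg1. Slide 1 alone gave 0.39 for Fgb and slide 2 alone -0.0017 for Fgg. Day 1 gave -0.060 for Fga, 0.088 for Fgb and 0.051 for Lrg1, day 2 1.72 for Fgb and 0.27 for Lrg1, and day 5 -0.089 for Fga, 0.47 for Hp, 0.84 for Hpx, 0.43 for Orm1, 1.09 for Orm2 and 0.21 for Lcn2. Leaving out etanercept 4 before background correction gave -0.16 for Fgg. With 1 liver left out at a time, Fgb ranged from -0.36 to 0.28, Fgg from -0.17 to 0.25 and Lrg1 from -0.15 to 0.0024. The cause was not tested. The sign of Hp, Hpx and Serpina3n held in 29 of 30 alternatives each. These alternatives reuse the same livers, and some, such as the filter settings, cannot change the difference. The count is therefore no measure of certainty. The size varied, as for Hpx, at -0.0011 with array weights and -1.87 on day 2. The number of arrays limits the precision, and the brightest probes had little range above their readings.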
